A study of Mus musculus with 16 samples.

Results

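Promoter peaks were taken as the nuclear ATAC-seq peaks whose midpoint lay within 1000 bp of the start of a protein-coding transcript (GENCODE vM21 basic, mm10). There were 13336 of them among 136630 nuclear peaks, or 9.76%. Each peak took the gene of its nearest start site, which gave 12372 genes of the 21951 protein-coding genes in the annotation. The rule used position only and no measured value.

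The cells were pancreatic ductal adenocarcinoma cells from tumour-derived KC-shSmad4 mouse lines. They carried Ptf1a-Cre, an rtTA3-IRES-mKate2 reporter allele and a doxycycline (Dox)-inducible shRNA against Smad4, and firefly luciferase had been added. All groups shared these alleles. The cells were injected into the pancreas (100000 cells, Panc), into the spleen followed by splenectomy to seed the liver (400000 cells, Liv), or into the tail vein to seed the lungs (250000 cells, Lung) of female athymic Foxn1 nu mice. Hosts kept on Dox had Smad4 silenced (OFF). In the other hosts Dox was withdrawn 4 weeks after pancreatic, 5 after intrasplenic and 6 after tail vein injection, and Smad4 was restored for 14 days (ON), while the column names of the lung samples give 1 day more. The groups held 3 samples each for Panc_OFF, Panc_ON, Lung_OFF and Lung_ON, and 2 each for Liv_OFF and Liv_ON. Tumour cells were sorted as mKate2+ and 60000 cells were transposed per sample. Organ, injection route, number of injected cells and growth time went together in this design and cannot be told apart. The labels name neither the line behind each sample nor the shRNA.

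A promoter is the stretch of DNA where RNA polymerase is loaded at the start of a gene, and it is usually kept free of nucleosomes. ATAC-seq measures this openness, since the transposase inserts its adapters where DNA is exposed. Promoters rich in CpG dinucleotides are mostly open in many cell types, as in genes that every cell uses, whereas CpG-poor promoters more often belong to genes of a particular tissue. SMAD4 joins receptor-activated SMAD proteins to regulate genes downstream of TGF-beta and BMP signals, and its gene is often lost in pancreatic cancer.

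The sequences of 5 promoters were set out here because the comparisons below turn on them. They were read from GRCm38.p6, the patch release of mm10, on the strand of the gene, as the longest stretch without untranslated exon bases within 300 bases around the peak midpoint. Capitals mark exact matches to the short motifs searched. Ccl8 led the promoters lower in liver than in lung, Cdh10 and Iffo2 led the Smad4 differences in the pancreas, Tubb5 was the most even housekeeping promoter, and Gli2, chosen after its values were seen, was called lower with Smad4 restored in each organ. The Ccl8 stretch (chr11:82115930-82116229) holds 112 coding exon bases and otherwise intron. The Cdh10 (chr15:18820701-18820842), Iffo2 (chr4:139532391-139532552), Tubb5 (chr17:35837475-35837774) and Gli2 (chr1:119052657-119052956) stretches are intronic.
Ccl8: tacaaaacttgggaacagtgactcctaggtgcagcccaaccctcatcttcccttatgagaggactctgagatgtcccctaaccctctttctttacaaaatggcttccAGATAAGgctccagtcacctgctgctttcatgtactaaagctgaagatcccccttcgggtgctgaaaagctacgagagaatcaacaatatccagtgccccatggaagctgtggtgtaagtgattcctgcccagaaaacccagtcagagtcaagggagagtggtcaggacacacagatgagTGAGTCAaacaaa
Cdh10: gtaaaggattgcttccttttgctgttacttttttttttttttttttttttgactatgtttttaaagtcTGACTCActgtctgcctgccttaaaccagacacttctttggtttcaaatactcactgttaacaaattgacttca
Iffo2: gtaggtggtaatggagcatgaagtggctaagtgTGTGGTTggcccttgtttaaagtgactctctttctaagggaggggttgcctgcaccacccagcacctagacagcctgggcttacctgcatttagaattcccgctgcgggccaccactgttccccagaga
Tubb5: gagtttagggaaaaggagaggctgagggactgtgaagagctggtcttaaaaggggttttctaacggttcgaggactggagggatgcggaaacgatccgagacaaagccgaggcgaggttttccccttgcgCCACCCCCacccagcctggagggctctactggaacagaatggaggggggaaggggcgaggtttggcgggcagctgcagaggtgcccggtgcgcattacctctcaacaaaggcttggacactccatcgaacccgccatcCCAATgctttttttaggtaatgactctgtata
Gli2: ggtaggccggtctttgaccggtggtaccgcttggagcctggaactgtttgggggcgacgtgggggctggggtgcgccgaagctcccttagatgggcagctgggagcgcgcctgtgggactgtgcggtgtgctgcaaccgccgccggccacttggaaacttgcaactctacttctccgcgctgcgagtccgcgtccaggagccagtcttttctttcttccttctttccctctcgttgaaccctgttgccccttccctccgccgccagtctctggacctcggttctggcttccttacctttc
The capitals in Cdh10 are an AP-1 motif (TGANTCA), those in Ccl8 a GATA motif (AGATAAG) and an AP-1 motif, that in Iffo2 a RUNX motif (TGTGGTT), and those in Tubb5 the reverse of a KLF motif (GGGNGTGG) and an NFY motif (CCAAT). None of the motifs searched was found in the Gli2 stretch. A match describes these letters only.

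Promoter peaks were wider, deeper and richer in GC than the other peaks. Their median width was 1545 bp against 545 bp, their median normalised count over all samples 686 against 49.7, and the median GC content of the central 300 bases 62% against 45.3%. Of the genes, 11524 had 1 promoter peak, 746 had 2 and 102 had 3 or more. Some 903 peaks lay between divergent start sites and 1140 lay at more than 1 gene. Just inside the limit, 318 peaks with midpoints 900 to 1000 bp from a start site had a median count of 596, and just outside it 305 peaks at 1000 to 1100 bp had a median count of 189. The rule missed 838 broad peaks that held a start site but whose midpoint lay beyond 1000 bp, with a median width of 4610 bp. Through these, 756 genes with an open start had no promoter peak here, among them Krt18, Krt19, Epcam, Sox9 and Jun.

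The 16 libraries held 23.0 to 38.2 M reads in the table, and promoter peaks took 33.7% to 41.2% of their normalised counts. The Liv_OFF samples had the highest shares, 40.1% and 41.2%, and the Liv_ON samples followed with 38.1% and 38.5%. The Panc_OFF samples lay between 36.7% and 37.2%, the Lung_OFF samples between 34.5% and 37.4%, the Lung_ON samples between 35.4% and 36.2% and the Panc_ON samples between 33.7% and 36.9%. Thus the 4 liver samples lay above all 12 others. The deposited size factors leave this shift in the promoter counts, and a general rise of promoters in liver cells and a library-wide difference in where reads fell cannot be told apart. The total number of promoters called in each liver comparison is therefore also given after promoter-median centring. This sets the median promoter to the same level in every sample. List counts, log2 differences, motif shares, distal peak shares and marker sums without a centred value beside them rest on the size factors alone. Those values carry the shift. Lung_OFF replicate 1 stood apart in a rise over distal chromosome 6, which held 144 promoter peaks.

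**Figure D1:**
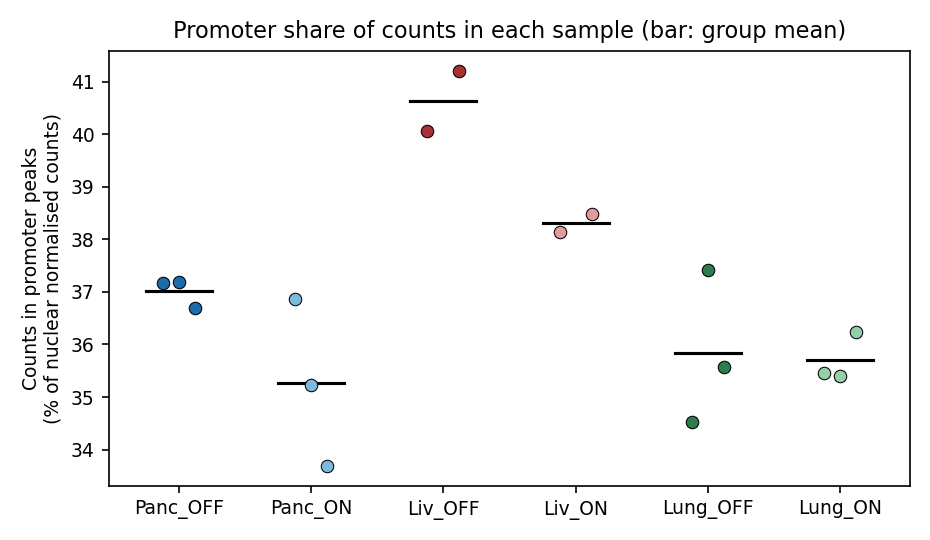
Share of each sample's nuclear normalised counts that fell in promoter peaks (percent, y axis, which does not start at 0), by group, with the group mean as a bar. The 4 liver samples lie between 38.1% and 41.2%, above the 12 pancreas and lung samples, which reach 37.4%.

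Organ accounted for most of the variation at promoters. Over the 16 samples, organ took 67.2% of the sum of squares of log2 counts at promoter peaks, Smad4 status 4.86%, their interaction 5.12% and the spread between replicates 22.8%. The other nuclear peaks gave similar shares, with 64.5% for organ and 5.2% for status. Within promoters, organ took 63.5% in the high CpG class and 68.7% in the low CpG class. A peak was called where limma gave an adjusted p of at most 0.1 over all nuclear peaks and the log2 difference was at least 0.58 in size, which are the thresholds of the study. Promoters were called less often than other peaks: 7604 promoter peaks (57.0%) were called in none of the comparisons between organs or between Smad4 states, against 18.2% of the other peaks.

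Liver and lung metastases with Smad4 silenced differed at promoters of epithelial and squamous genes, which were more open in the liver, and at promoters of mesenchymal genes, which were more open in the lungs. In Liv_OFF against Lung_OFF, 2781 promoter peaks were called higher (20.9%, against 22.9% of all nuclear peaks) and 768 lower (5.76%, against 26.8%). The median promoter was 0.40 higher on the log2 scale. After promoter-median centring the calls were 1008 higher (7.56%, against 13.9% of all nuclear peaks) and 1394 lower (10.5%, against 35.4%). Quantile normalisation gave 1516 higher and 779 lower and a GC correction 1810 and 1012. The share of calls that were higher thus ranged from 42.0% to 78.4% with the scaling. The promoters of largest rise and fall, named next, had differences far larger than the general shift. Some members of the gene lists further below lie close to it.

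**Figure D2:**
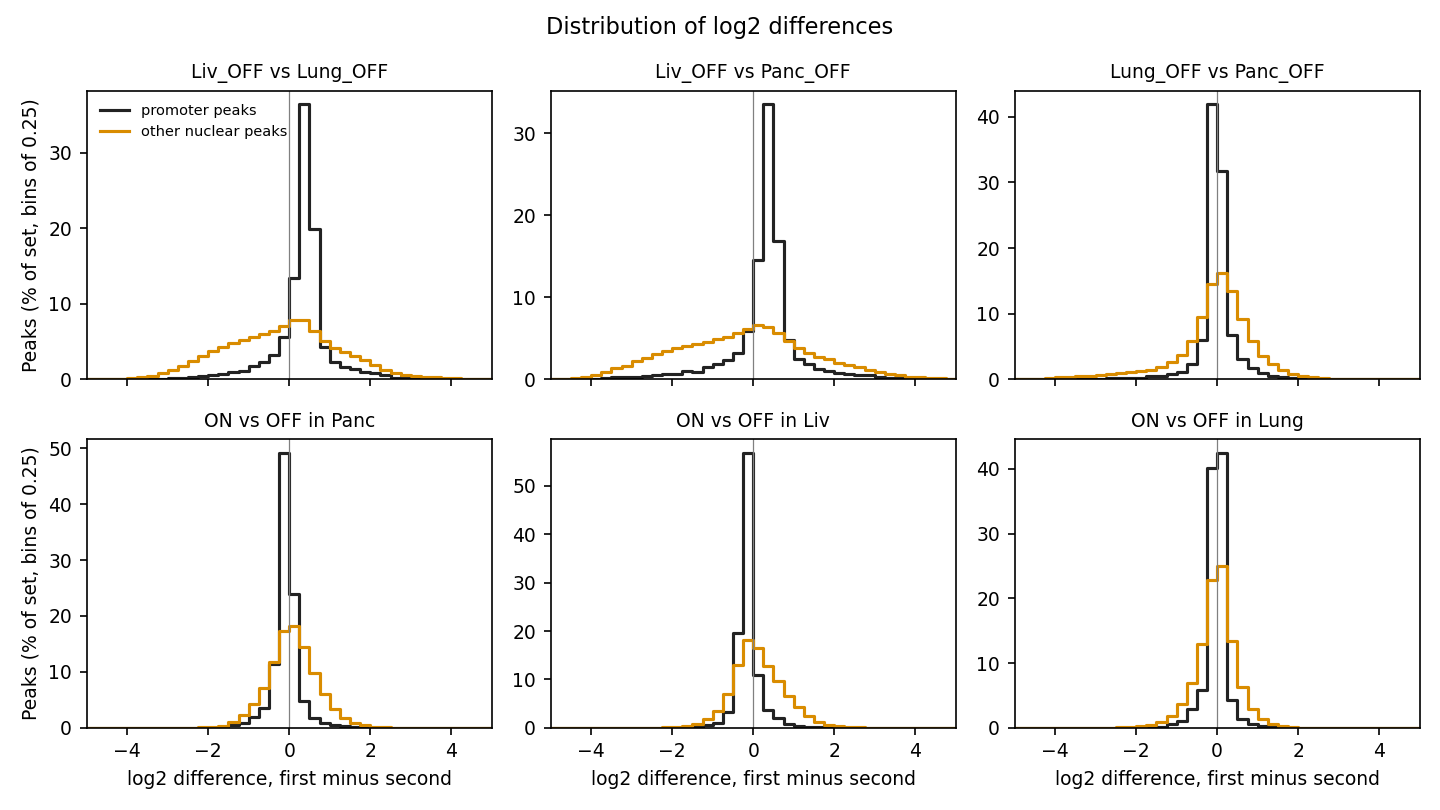
Distribution of log2 differences (x axis, first group minus second, bins of 0.25) over promoter peaks (black) and other nuclear peaks (orange), as percent of each set (y axis), in 6 comparisons. Promoter differences are narrower than those of other peaks, and in the liver comparisons their median lies above 0, at 0.40 against Lung_OFF and 0.37 against Panc_OFF.

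The promoter of Rab25, a small GTPase of epithelial membrane traffic, was among those with the largest rise, with normalised counts of 176 and 347 in Liv_OFF and 7.36, 12 and 6.89 in Lung_OFF (log2 difference 4.71 ± 0.63 (SE), adjusted p = 6.62e-05, limma). Foxn1, the transcription factor of thymus and skin epithelium whose nu allele the hosts carry, had promoter counts of 133 and 339 in Liv_OFF and 6.44, 13.0 and 6.03 in Lung_OFF (4.56 ± 0.51, adjusted p = 2.31e-05, limma). Samples that did not overlap were a condition for naming a promoter, so this adds no support. In this comparison 79.3% of all promoter peaks did not overlap. Further promoters among those with the largest rise were those of Rbbp8nl (4.94), Defb1, a beta-defensin (4.63), Ankrd65 (4.52), Crnn, the squamous protein cornulin (4.32), Anxa9 (4.25), Dnase1l2 (4.12) and Tiam1, an activator of the GTPase Rac (4.11). These promoters all belonged to the low CpG class.

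Among the promoters lower in Liv_OFF, that of the chemokine gene Ccl8 led. It had 8.64 and 11.1 normalised counts in Liv_OFF against 203, 117 and 204 in Lung_OFF (log2 difference −3.98 ± 0.45, adjusted p = 2.45e-05, limma). In the ON groups it had 60.6 and 19.3 in Liv_ON against 134, 168 and 157 in Lung_ON. These did not overlap, as at 66.1% of all promoter peaks. Pate1 (−3.36 ± 0.52, adjusted p = 0.000181, limma) had 23.4 and 59.9 in Liv_OFF and 543, 274 and 415 in Lung_OFF. Trpc6, a cation channel (−3.24), Palm2 (−3.19), Kcns3, a potassium channel subunit (−3.33), the matrix protease gene Mmp10 (−3.07), Sprr2k (−3.44) and the homeobox gene Hoxa2 (−3.95) followed. Lung_OFF replicate 1 was the highest of its group for several of these, with 125 at Hoxa2 against 10.9 and 29.3, and 219 at Kcns3 against 23.9 and 75.8. Each of these calls held without that library. The remaining 2 of the 10, Pde6h (−3.76) and Lmntd1 (−3.17), lie on distal chromosome 6, and Lmntd1 had 690 counts in Lung_OFF replicate 1 against 89.1 and 101 in the other lung OFF samples. Over the 144 promoter peaks there, 6.94% were called higher and 20.1% lower in Liv_OFF, and the part of the rise over that region in these values was not tested.

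**Figure D3:**
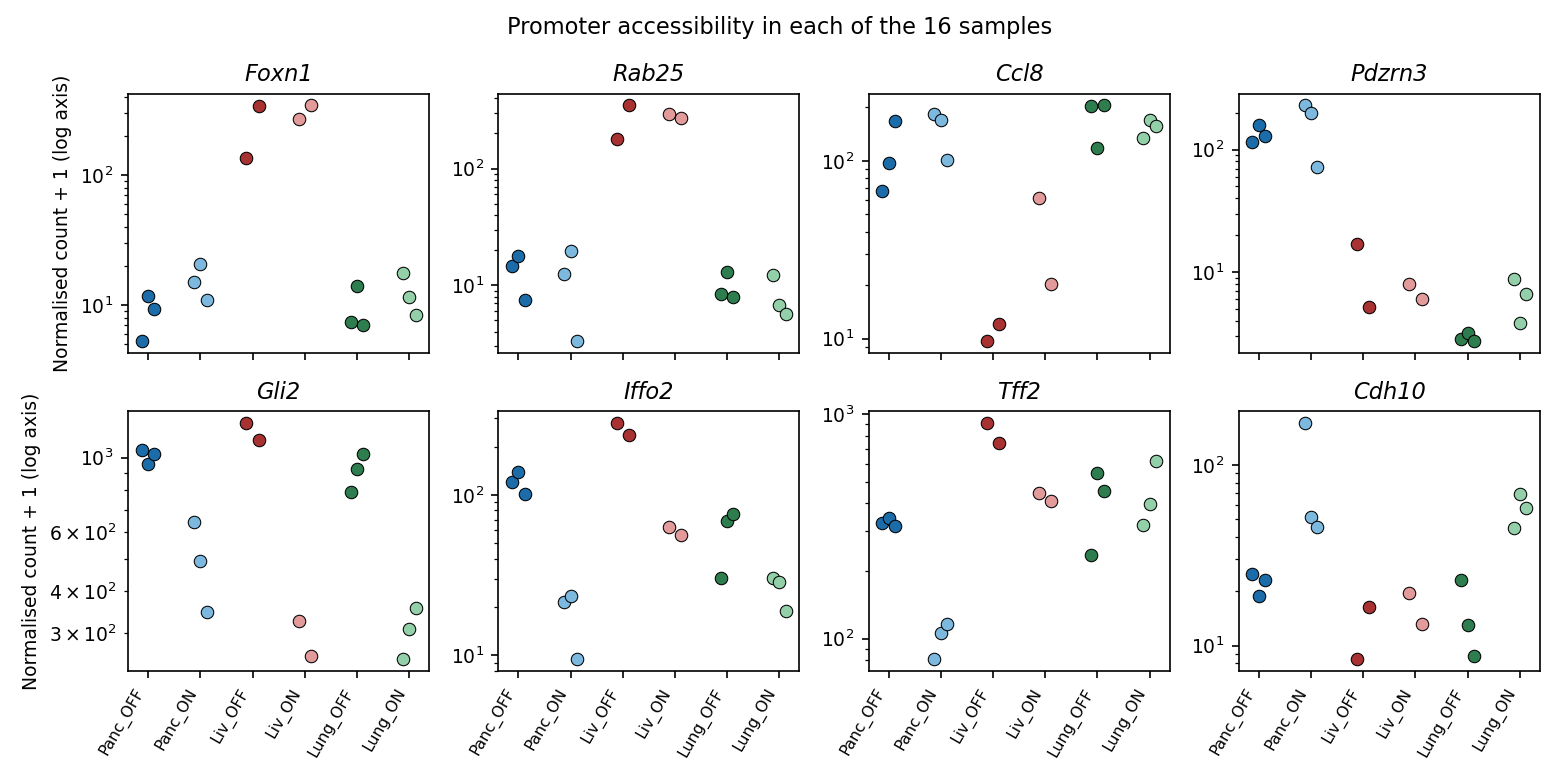
Normalised count plus 1 (log axis) of 8 promoter peaks in each of the 16 samples, by group, 1 point per sample. Foxn1 and Rab25 are high in the 4 liver samples alone, Ccl8 is low in them, Pdzrn3 is high in the pancreas samples, and Gli2 is lower in every ON sample than in every OFF sample of the same organ.

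The gene lists gave the same contrast. Of 25 epithelial genes, 12 had a promoter peak and all 12 were called higher in Liv_OFF than in Lung_OFF, with a median log2 difference of 2.01 against 0.40 over all promoters. After promoter-median centring 9 of the 12 remained called. They included the transcription factor gene Grhl2, whose counts were 391 and 963 in Liv_OFF against 85.6, 57.6 and 43.1 in Lung_OFF (3.34 ± 0.38, adjusted p = 2.7e-05, limma), the splicing regulator gene Esrp1 (2.68) and the serine protease gene Prss8 (2.39). Grhl2 also lay higher in Liv_ON, at 644 and 722, than in Lung_ON, at 59.5, 30.7 and 32.7. In the basal and squamous list 13 of 16 promoters were called higher and none lower (11 after centring), with a median of 2.17. The largest were at low counts: Dsc3, a desmosomal cadherin, had 19.8 and 46.0 counts in Liv_OFF and at most 0.920 in Lung_OFF, and Trp63, the p63 transcription factor of basal epithelium, had 18.5 and 34.8 against at most 2.76. The keratin gene Krt17 (3.89) and the hemidesmosomal collagen gene Col17a1 (3.82) also rose. Of 15 gastric and mucin promoters, 8 were higher and 1, Vsig1, was lower. Among 13 pancreas and endoderm factors, Hnf4a (2.31), Foxa1 (1.33), Nr5a2 (0.96) and Hnf4g (0.89) were called higher and Onecut1 (−0.91) lower. These shares lie near the 20.9% and 5.76% of all promoters, the list median was 0.45, and 2 were higher and 1 lower after centring. Hnf4a, a regulator of endodermal epithelium, had 216 and 230 counts in Liv_OFF and 36.8, 64.1 and 36.2 in Lung_OFF.

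Mesenchymal promoters went the other way. Of the 20 with a peak, 8 were called lower in Liv_OFF than in Lung_OFF and 1, Zeb2, higher, and centring gave 14 lower and none higher. A gene with several promoter peaks was counted in the lists by the peak nearest a start site, and of the other Zeb2 peaks 1 was lower (−0.86). The promoter of Twist2, a regulator of mesenchymal genes, had 317 and 240 counts in Liv_OFF and 1022, 728 and 974 in Lung_OFF (−1.70 ± 0.26, adjusted p = 0.000159, limma). Sparc, a matrix glycoprotein (−2.01), Loxl2, a collagen cross-linking enzyme (−1.90), and Prrx1, a mesenchymal homeobox gene (−1.66), were called too. Markers of other cells moved with this contrast: summed fibroblast counts were 1213 and 1275 in Liv_OFF and 1505 to 1908 in Lung_OFF, with 1 of 9 promoters called lower (4 after centring), and 3 of 7 endothelial promoters were lower and 1 higher. Their part in the mesenchymal difference was not tested. Vim and Snai2, with log2 differences of −0.36 and −0.20, and Zeb1, with 0.21, were not called. Of the 19 Hox promoters 3 were higher and 4 lower, and Hoxa13 (1.17) and Hoxa2 marked the extremes among those called.

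Promoters of TGF-beta pathway genes were called about as often as promoters in general with the deposited size factors. After centring they were called lower more often than promoters in general. Of 37 with a peak among 55 listed, 7 were called higher in Liv_OFF than in Lung_OFF and 2 lower, where 20.9% and 5.76% of all promoters were. After centring 2 were higher and 6 lower, where 7.56% and 10.5% of all promoters were. In Liv_OFF against Panc_OFF 6 were higher and 3 lower, where 22.7% and 8.68% of all promoters were. After centring 3 were higher and 11 lower there, where 9.86% and 13.3% of all promoters were. The median log2 difference was 0.22, below the 0.40 of all promoters. Among ligands Bmp3 (2.34) and Bmp6 (1.12) were higher, while the secreted BMP antagonist Grem1 (−1.82) and the activin antagonist Fst (−0.92) were lower. Bmp3 had 847 and 991 counts in Liv_OFF against 153, 225 and 171 in Lung_OFF, and Grem1 188 and 242 against 1138, 478 and 792. The receptor genes Tgfbr2 (0.60), Acvr1b (0.59) and Acvrl1 (0.59) and the signal genes Smad2 (0.63) and Ski (0.60) passed the fold threshold narrowly and were not called after centring. Of the genes presented as SMAD4 effectors in these tumours, a list chosen on samples of this study and so no independent evidence of direction, Col6a1 (−2.43), Ccn4 (−1.76) and Il11 (−0.61) were lower and the cell cycle inhibitor gene Cdkn1c was higher (0.65 ± 0.15, adjusted p = 0.00283, limma). Cdkn1c had 469 and 575 counts in Liv_OFF and 287, 366 and 342 in Lung_OFF, and after centring it was not called. KLF and RUNX factors gave 4 higher and 1 lower of 16, shares near those of all promoters, and after centring none was higher and 1 lower. Klf15 (0.95) was the highest of those called and Runx3 (−1.69) the lowest. Of 4 AP-1 genes only Fosl2 (0.66) was called.

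Genes that every cell uses showed the general shift and little else. Of 21 housekeeping promoters, Pgk1 (0.92), Snrpd3 (0.66) and Hprt (0.65) were called higher in Liv_OFF than in Lung_OFF, the median was 0.42, and none was called after centring. Tubb5, whose promoter was the most even of the list over the 16 samples, had 2747 and 2579 counts in Liv_OFF and 2187, 2202 and 1982 in Lung_OFF. Of 23 cell cycle promoters, 3 were higher (Ccnb1, Cdkn1c and Pcna), with a median of 0.42, and none after centring. Of 17 interferon and antigen presentation promoters, 1 was higher (Irf9, 0.71), and centring gave 3 lower. Of 13 sterol and fatty acid promoters none was called, and the median was 0.37.

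**Figure D4:**
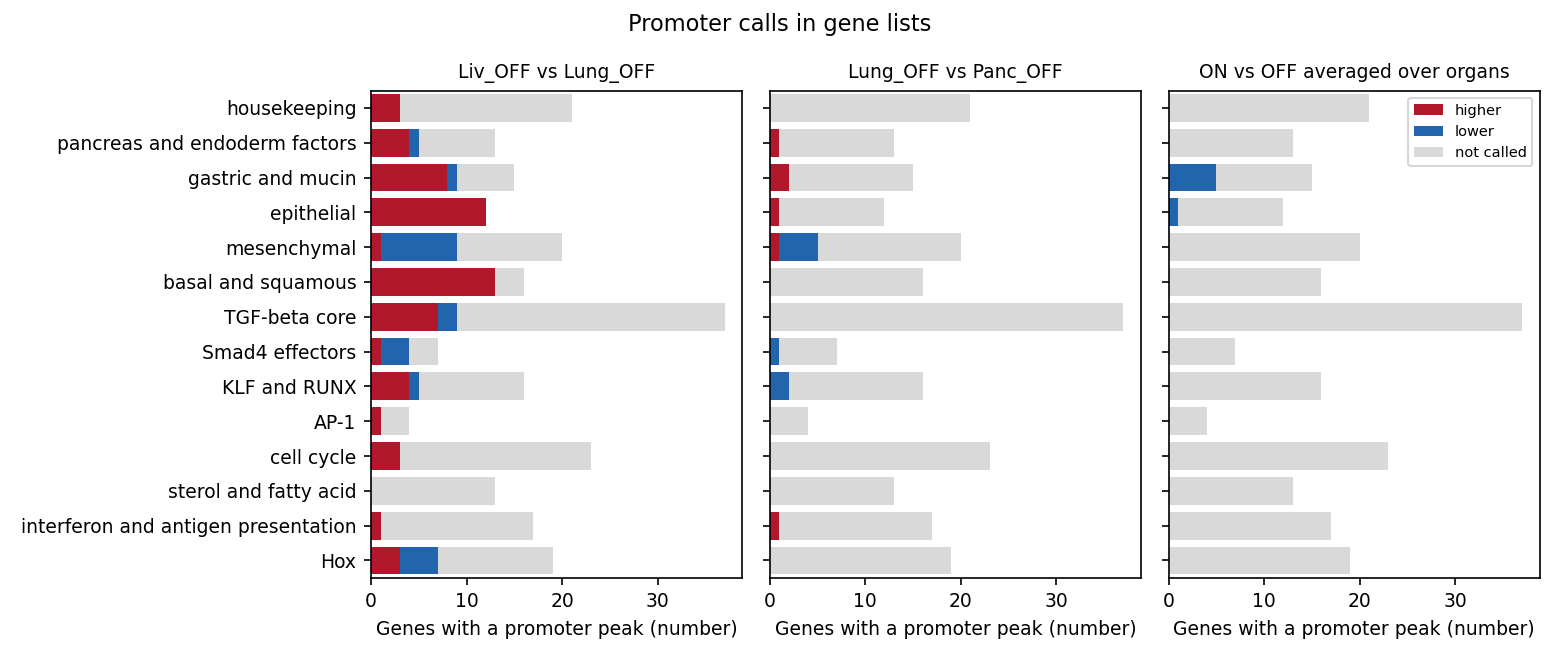
Number of genes with a promoter peak (x axis) in each gene list (y axis), split into those called higher (red), called lower (blue) and not called (grey), in 3 comparisons with the deposited size factors. The epithelial list is red throughout in Liv_OFF against Lung_OFF, with 12 of 12, the basal and squamous list with 13 of 16, and the mesenchymal list holds 8 lower and 1 higher.

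The organ contrast was measured again in the ON samples, which share no library with the OFF samples. Both contrasts came from 1 fit, with the spread of each peak taken over all 16 samples. The calls in the ON and OFF groups are therefore not independent of each other. In Liv_ON against Lung_ON 1433 promoter peaks were called higher (10.7%, against 17.6% of all nuclear peaks) and 581 lower (4.36%, against 18.2%). After centring 969 were higher (7.27%, against 13.3%) and 956 lower (7.17%, against 23.4%), or 1091 and 831 with GC correction. Of the 2781 promoters higher in Liv_OFF, 46.8% were called higher again and 99.2% had the same sign, where 77.2% of all promoters were positive. Of the 768 lower ones 55.3% were called lower again and 95.3% had the same sign. Their median log2 differences were 0.60 and −0.87 in the ON samples, against 0.83 and −1.30 in the OFF samples that chose them. In the ON samples 10 of 12 epithelial and 11 of 16 basal and squamous promoters were called higher, while 3 of 20 mesenchymal promoters were lower. Without Liv_ON replicate 2 the total of 2014 calls between Liv_ON and Lung_ON fell to 918.

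Against the pancreas tumours, liver metastases differed at more promoters. In Liv_OFF against Panc_OFF 3023 were called higher (22.7%, against 26.2% of all nuclear peaks) and 1157 lower (8.68%, against 32.3%). Centring gave 1315 higher (9.86%, against 18.2%) and 1776 lower (13.3%, against 40%), and quantile normalisation 1752 and 1203. The ON groups gave 2658 higher (19.9%, against 27.1%) and 1220 lower (9.15%, against 32.2%). After centring the ON groups gave 1577 higher (11.8%, against 21%) and 1817 lower (13.6%, against 39%). Of the promoters called in the OFF groups, 74.3% of those higher and 83.1% of those lower were called again in the ON groups. Defb1, Foxn1 and Tiam1 were again among the 10 largest rises. They were joined by Zfp750, a factor of epidermal differentiation (4.86), Arhgap32 (4.86), Malrd1 (4.84), the phosphodiesterase gene Pde4b (4.75), the exonuclease gene Trex2 (4.70) and Tex12 (4.63). Zfp750 had 114 and 219 counts in Liv_OFF and 4.27, 7.15 and 2.78 in Panc_OFF. All 12 epithelial and 14 of 16 basal and squamous promoters were higher, and 14 of 20 mesenchymal promoters lower.

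Promoters lower in the liver than in the pancreas included those of stromal genes. Il1rl1, the interleukin 33 receptor, had 92.2, 86.7 and 197 counts in Panc_OFF and 7.41 and 4.18 in Liv_OFF (−4.15 ± 0.73, adjusted p = 0.000258, limma). Fap, fibroblast activation protein, had 92.2, 147 and 229 in Panc_OFF against 18.5 and 5.57 (−3.70 ± 0.59, adjusted p = 0.000128, limma). Samples that did not overlap were a condition for naming both genes, and 83.8% of all promoter peaks did not overlap in this comparison. Bdkrb1, a bradykinin receptor (−4.12), Tcf4 (−3.99), Fam124b (−3.90), Pdzrn3 (−3.82), Cadps (−3.80), Nup93 (−3.76), Cpa4 (−3.70) and Runx1t1 (−3.69) completed the 10.

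Lung metastases and pancreas tumours were closest at promoters. In Lung_OFF against Panc_OFF 322 promoter peaks were called higher (2.41%, against 6.59% of all nuclear peaks) and 490 lower (3.67%, against 10.7%), and the median was −0.02. GC correction gave 440 higher and 431 lower. In the ON groups 974 were higher (7.3%, against 12.8% of all nuclear peaks) and 698 lower (5.23%, against 14.9%). After centring 755 were higher (5.66%, against 10.2%) and 787 lower (5.9%, against 16%). Pdzrn3, a ubiquitin ligase, had the largest difference, with 114, 158 and 127 counts in Panc_OFF and 1.84, 2.17 and 1.72 in Lung_OFF (−5.51 ± 0.50, adjusted p = 0.000176, limma). Matrix genes followed: Mfap4 (−4.91), Ogn (−4.77), Lum (−4.68), Col6a3 (−4.50) and Thbs2 (−4.33), with the chemokine scavenger gene Ackr4 (−4.91), Tcf4 (−4.83), C1qtnf5 (−4.82) and Bnc2 (−4.47). Lum, the proteoglycan lumican, had 115, 176 and 272 counts in Panc_OFF against 6.44, 5.43 and 6.03 in Lung_OFF. The number called depended on the pancreas samples: of the 812 calls, 528 were left without Panc_OFF replicate 2 and 414 without Panc_OFF replicate 3.

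Fibroblast markers moved with these pancreas promoters. Of 10 fibroblast marker genes 9 had a promoter peak, and all 9 were lower in Liv_OFF and 6 lower in Lung_OFF than in Panc_OFF. Their summed counts ran from 2633 to 3576 in Panc_OFF and from 2434 to 4620 in Panc_ON, against 1213 to 1617 in the liver samples and 1505 to 2115 in the lung samples. The lowest of the pancreas sums was that of Panc_ON replicate 3, where Lum had 62.9 counts against 185 and 194 in the other Panc_ON samples. Of the fibroblast list, Col1a2 and Dcn had 48.7, 32.2 and 185 and 89.7, 94.7 and 166 counts in Panc_OFF, and in Lung_OFF at most 5.52 and 21.5. The sort kept mKate2+ cells, and the part of fibroblasts in the pancreas promoters was not tested. In sorted bulk cells, more cells of a type and more accessibility per cell cannot be told apart. Of the other marker lists few genes had a promoter peak: 3 of 18 hepatocyte, 5 of 12 lung epithelium, 3 of 14 acinar, 4 of 15 leukocyte and 7 of 11 endothelial genes. Summed hepatocyte counts were 1115 and 1280 in Liv_OFF against 1041 to 1055 in Lung_OFF and 641 to 787 in Panc_OFF. Summed leukocyte counts were 618 and 967 against 434 to 640 and 372 to 474. Of the tumour epithelium markers only Cldn7 had a promoter peak, at 1212 and 1410 counts in Liv_OFF and 311 to 426 in Panc_OFF. Summed acinar counts were 758 and 800 in Liv_OFF against at most 393 in the pancreas and lung samples, and lung epithelium counts 2193 and 2435 in Liv_OFF against 1011 to 1281 in Lung_OFF. None of Cdkn2a, Cdkn2b and Mtap, and none of 4 Y-linked genes, had a promoter peak.

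Among promoters higher in Lung_OFF than in Panc_OFF, the largest differences were smaller than those in the other direction. Slco2a1, the prostaglandin transporter, was clear, with 682, 602 and 546 counts in Lung_OFF and 137, 169 and 98.2 in Panc_OFF (2.20 ± 0.29, adjusted p = 0.000429, limma). In the ON groups it had 274, 306 and 294 in the lungs against 97.8, 126 and 288 in the pancreas, and these overlapped. Gucy2c, an intestinal receptor (2.40), Lypd8 (2.42), the lipase gene Pnliprp2 (2.08), Ceacam18 (2.20) and H2-M2 (2.21) were also higher in Lung_OFF, and at each of these the Liv_OFF samples had still higher counts on average. Pnliprp2, for instance, had 475 and 545 counts in Liv_OFF, 52.5, 226 and 85.3 in Lung_OFF and 17.1, 32.2 and 22.2 in Panc_OFF. Pde6h (3.44) and St8sia1 (2.51), like Gucy2c, lie on distal chromosome 6, Galntl6 (2.41) was not called without Lung_OFF replicate 1, and Vmn1r41 (2.09) was not called without Panc_OFF replicate 3.

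CpG content set apart the promoters that differed. Classes were set on the central 300 bases: high with an observed to expected CpG ratio of at least 0.75 and a GC fraction of at least 0.55, low with a ratio under 0.48, and intermediate otherwise. The classes held 5577, 3798 and 3961 promoter peaks. In Liv_OFF against Lung_OFF 15.9% of high CpG promoters were called higher and 2.10% lower, against 31.0% and 12.9% of low CpG promoters. After centring the shares were 2.46% and 5.2% in the high class and 18.1% and 20.2% in the low class. Of high CpG promoters 69.8% were called in none of the comparisons, of low CpG promoters 33.0%. Low CpG promoters also had lower counts, with a median of 238 against 878, and of the 3334 promoters with the lowest mean counts 24.8% were never called, against 73.5% of the 3334 with the highest. Divergent promoters, which are shared by a pair of genes, were never called in 77.0% of cases.

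**Figure D5:**
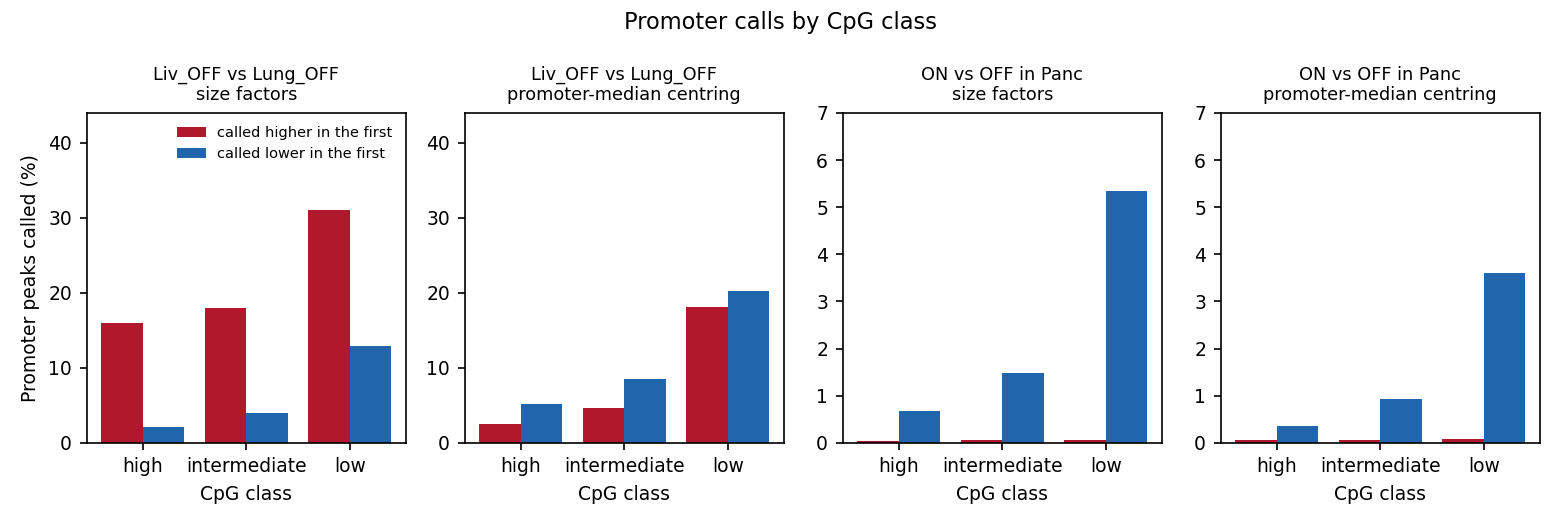
Percent of promoter peaks (y axis) called higher (red) or lower (blue) in the first group, by CpG class (x axis), for Liv_OFF against Lung_OFF and for ON against OFF in the pancreas, with size factors and with promoter-median centring. In Liv_OFF against Lung_OFF the low class has 31.0% higher and 12.9% lower, and the high class 15.9% and 2.10%.

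Motif content differed between the sets as well. The AP-1 motif was found in the central 300 bases of 7.45% of promoter peaks and 37.0% of the other peaks, on either strand. The ETS motif (CCGGAAGT) was found in 3.49% against 0.38% and the SP motif (GGGGCGGGG) in 11.8% against 1.22%. Among low CpG promoters, 18.1% held the AP-1 motif: 36.7% of those lower in Liv_OFF than in Lung_OFF, and 13.9% of those higher. In the ON groups these shares were 31.2% and 17.0%. The HNF4 motif (CAAAGTCCA) was found in 0.44% of promoters, 1.01% of those higher in Liv_OFF (28 peaks) and 0.13% of those lower (1 peak). Among low CpG promoters it was found in 0.895%, with 1.61% of those higher and 0.204% of those lower. The shares describe letters in the window, not bound factors.

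Distal peaks near a gene tended to differ in the direction of its promoter. Each other peak was given to the gene of the nearest start site within 100000 bp. Near genes whose promoter was higher in Liv_OFF than in Lung_OFF, 38.9% of 16809 distal peaks were called higher and 16.5% lower. Near genes whose promoter was lower, 8.89% of 5577 were higher and 49.7% lower. Near genes with no called promoter the shares were 23.0% and 27.0% of 45820. Neighbouring peaks share their region, and no test was made.

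In some genes the relative levels of the promoter peaks differed between liver and lung. There were 1094 pairs of promoter peaks of the same gene at least 500 bp apart, in 846 genes, and the difference between the members of a pair was itself compared between Liv_OFF and Lung_OFF. Of these pairs 431 were called (39.4%), and 40 of them, in 32 genes, held 1 peak called higher and 1 called lower. Of the 431 called pairs 97.9% had the same sign in the ON samples and 61.9% were called there. The same shares over all 1094 pairs are not given here. Dst, which encodes the cytolinker dystonin, was lower in Liv_OFF by 0.86 at an upstream promoter peak and higher by 2.56 at an internal one 153464 bp away, on the log2 scale. The upstream peak (chr1:34005113-34007081) had 426 and 313 counts in Liv_OFF and 773, 638 and 595 in Lung_OFF. The internal peak (chr1:34158680-34160442) had 159 and 379 against 57.1, 32.6 and 36.2. The difference of the log2 differences was −3.43 ± 0.44 (adjusted p = 0.000513 over pairs, limma), and it was called in the ON samples too, at −3.63.

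Macc1, a regulator of growth factor receptor signalling, showed the same pattern. Its upstream peak had 37.0 and 25.1 counts in Liv_OFF and 67.2, 82.6 and 74.1 in Lung_OFF, and its internal peak 75293 bp away had 260 and 539 against 67.2, 59.8 and 89.6. The pair differed by −3.64 ± 0.55 (adjusted p = 0.000843, limma) and by −3.58 in the ON samples. Klhl33 (3.13) was also called in both states, at counts of at most 62.0 in the liver and lung samples. Slc25a21 (−3.81), Ccdc162 (−3.65), Dab2ip (−3.17), Rnf180 (−3.14) and Olfr101 (−4.22) were called in the OFF samples alone, and Ccdc162 and Dab2ip were lost without Liv_OFF replicate 2. Each pair called in the OFF samples alone held a peak at low counts. For Slc25a21 this peak had 12.3 and 6.97 in Liv_OFF and at most 3.26 in Lung_OFF, and the Olfr101 peaks had at most 37.7 in these groups. At Ccdc162 the low peak had 11.1 and 2.79 against 55.2, 8.69 and 56.0. It had 4.94 and 0 against 13.8, 3.26 and 11.2 at Dab2ip, and 1.23 and 8.36 against 42.3, 7.61 and 9.48 at Rnf180. The groups overlapped at these last peaks. The difference between the states was not tested.

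Restoration of Smad4 changed few promoters beside organ. In the pancreas 6 promoter peaks were called higher (0.045%, against 0.364% of all nuclear peaks) and 300 lower (2.25%, against 3.06%). In the liver 10 were higher (0.075%, against 0.462% of all nuclear peaks) and 4 lower (0.03%, against 0.0886%), or 34 and 3 after centring. In the lungs none was higher (against 0.00146% of all nuclear peaks) and 1 was lower (0.0075%, against 0.0022%). There 574 had an unadjusted p under 0.05, and DESeq2 called 49. Averaged over organs 52 were higher (0.39%, against 3.61% of all nuclear peaks) and 172 lower (1.29%, against 3%). After centring 68 were higher (0.51%, against 4.52%) and 111 lower (0.832%, against 2.05%). The Smad4 promoter itself was not called in any of them, with a log2 difference of −0.09 in the pancreas. The shRNA acts on the transcript, so that this peak does not check the labels.

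The pancreas count rested on single libraries. Of the 306 calls, 34 were left without Panc_OFF replicate 2, 112 without Panc_OFF replicate 1, 152 without Panc_OFF replicate 3, 156 without Panc_ON replicate 1 and 115 without Panc_ON replicate 2, while DESeq2 gave 468 and GC correction 153. The 14 liver calls became 1 without Liv_OFF replicate 1 or Liv_ON replicate 1, 36 without Liv_ON replicate 2, 24 without Panc_ON replicate 3, 40 without Lung_OFF replicate 1 and 43 without Lung_OFF replicate 2, and 4 to 8 without any single other pancreas or Lung_ON library. The 224 calls of the average became 99 without Liv_OFF replicate 1, 91 without Liv_ON replicate 1, 382 without Lung_OFF replicate 1 and 134 without Lung_OFF replicate 2. With the lung replicate numbers as a block, the liver gave 39 calls (1.47% of all nuclear peaks) and the lungs 3 (0.03% of all nuclear peaks).

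The promoter of Gli2, a transcription factor of Hedgehog signalling, was the only one called in all 3 organs. It fell by 1.07 on the log2 scale in pancreas tumours, by 2.05 ± 0.23 in the liver (adjusted p = 0.00791, limma) and by 1.59 ± 0.19 in the lungs (adjusted p = 0.0326, limma). Its counts (chr1:119051311-119054303, midpoint 812 bp inside the gene) were 1051, 957 and 1021 in Panc_OFF and 644, 493 and 346 in Panc_ON. In the liver they were 1265 and 1130 OFF against 325 and 256 ON. In the lungs they were 792, 926 and 1021 OFF against 250, 309 and 356 ON. Every ON sample lay below every OFF sample, in each organ, and this was a condition for naming Gli2 in the liver and lungs. Averaged over organs the log2 difference was −1.57 ± 0.12 (adjusted p = 2.07e-05, limma). Of 25 distal peaks given to Gli2, 15 were called lower in the average, 9 in pancreas tumours, 5 in liver and 1 in lung metastases, and none was called higher. The lung call was lost without Lung_ON replicate 2 and when only the lung groups entered the fit.

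A promoter peak of Iffo2 was called in pancreas and liver. Iffo2 is an intermediate filament family member. Its peak (chr4:139532051-139532755, midpoint 714 bp past the start) had 119, 138 and 100 counts in Panc_OFF and 20.4, 22.3 and 8.43 in Panc_ON (−2.83 ± 0.38, adjusted p = 0.00963, limma). The liver samples had 279 and 234 OFF and 61.7 and 54.8 ON (−2.12 ± 0.47, adjusted p = 0.0871, limma), and the lung samples 29.5, 67.4 and 75.0 OFF and 29.2, 27.8 and 17.7 ON. The OFF and ON samples did not overlap in any organ, which was a condition for naming Iffo2 in pancreas and liver. Of 18 distal Iffo2 peaks 2 were lower in the pancreas, and none was called in the other organs. The liver call was lost under 18 of the alternatives, among them each removal of a liver library. Both Gli2 and Iffo2 belong to 63 promoter peaks (0.472%, against 0.57% of all nuclear peaks) where every ON sample lay below every OFF sample in all 3 organs, and 10 promoters (0.075%, against 0.612%) lay above.

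In the pancreas the promoters lower with Smad4 restored included genes of gastric and digestive epithelium. Tff2, a gastric trefoil factor, had 325, 343 and 315 counts in Panc_OFF and 80.0, 105 and 116 in Panc_ON (−1.71 ± 0.27, adjusted p = 0.0109, limma). Pancreas samples that did not overlap were a condition for naming Tff2, and 20.3% of all promoter peaks had this. The lung samples overlapped, with 236, 544 and 453 OFF and 319, 397 and 619 ON. Nr0b2, the orphan receptor SHP, had 168, 169 and 261 against 64.9, 43.3 and 46.8 (−1.92 ± 0.35, adjusted p = 0.0178, limma). Sigirr, an inhibitory interleukin 1 family receptor (−1.89), Pla2g4a, a phospholipase A2 (−1.82), Ttll10 (−1.78) and Amt, of glycine cleavage (−1.67), were also among the 8. Of 15 gastric and mucin promoters 3 were lower in the pancreas, Tff2, Gkn3 (−1.51) and Lgals4 (−0.97), and none was higher. Of all promoters 2.25% were lower in the pancreas and 1.29% in the average. In the average over organs 5 were lower, the secreted trefoil genes Tff2 (−0.84) and Tff3 (−0.78), the mucin genes Muc5ac (−0.99) and Muc4 (−0.74) and the secretory factor gene Spdef (−0.79), of which 3 were called after centring. No member of the mesenchymal, basal and squamous, TGF-beta, SMAD4 effector, cell cycle, interferon, sterol, Hox or housekeeping lists was called in the pancreas or in the average. Marker levels moved with these promoters in the pancreas: summed acinar counts were 237 to 300 in Panc_OFF and 170 to 196 in Panc_ON, Cldn7 had 311 to 426 against 180 to 277, and neither overlapped. Summed fibroblast counts were 2633 to 3576 in Panc_OFF and 4620, 4016 and 2434 in Panc_ON. The part of these cells in the result was not tested. Outside the gastric list, Prss8 (−0.75) of the epithelial list and the marker genes Sftpd of lung epithelium (−0.94) and Cela1 of acinar cells (−0.60) were lower in the average.

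Of the 300 promoters lower in the pancreas, 203 (67.7%) belonged to the low CpG class and 38 to the high class. As shares of each class these were 5.34% and 0.681%. Their median log2 difference was −0.93 in the pancreas, where they were chosen, −0.38 in the liver and −0.06 in the lungs. In the liver 281 were negative, where 81.5% of all promoters were, and in the lungs 182, where 51.0% of all promoters were. Differences of the Smad4 effect between organs were tested directly, and limma called none of the promoters or other peaks in any pair of organs (0% of all nuclear peaks each). At an unadjusted p under 0.05 there were 1375 promoters for lungs against pancreas, 910 for liver against lungs and 321 for liver against pancreas. DESeq2 called 188 (1.65% of all nuclear peaks), 1 and 2, and edgeR none. With the lung replicate numbers as a block, 182 promoters were called for lungs against pancreas (1.75% of all nuclear peaks), and without Lung_OFF replicate 2 there were 325. An organ difference in the Smad4 effect at promoters thus depended on the fit.

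Promoters that rose with Smad4 restored were few, mostly at low counts. Cdh10, a cadherin, had 23.9, 17.9 and 22.2 counts in Panc_OFF and 170, 50.8 and 44.5 in Panc_ON (1.73 ± 0.48, adjusted p = 0.0811, limma). This pancreas call was lost under 11 alternatives, and without Panc_ON replicate 1, the sample with 170 counts, the log2 difference was 1.13 (adjusted p = 0.23, limma). In the lungs Cdh10 had 22.1, 12 and 7.75 OFF against 43.8, 68.1 and 56.9 ON. In the liver it had 7.41 and 15.3 against 18.6 and 12.2, and these groups overlapped. Averaged over organs the log2 difference was 1.41 ± 0.30 (adjusted p = 0.0167, limma). Tmem47 (1.72), Lef1, a Wnt pathway transcription factor (0.81), and Zfp462 (0.77) were the other named genes higher in the pancreas, and their calls were lost under 7, 7 and 13 alternatives. In the liver Chrna1, an acetylcholine receptor subunit (1.40), Gad2 (1.10), Col7a1, the collagen of anchoring fibrils (0.94), Cd109, a TGF-beta co-receptor (0.93), Svil (0.82) and Fbln2 (0.72) were higher, and Pde4c (−1.30) and Mapk3, the kinase ERK1 (−0.65), were lower beside Gli2 and Iffo2. Except for Gli2, these liver calls depended on the processing: they were lost under 5 alternatives for Cd109, 8 for Mapk3, 12 for Chrna1, 14 for Col7a1, 17 each for Gad2, Svil and Fbln2 and 20 for Pde4c. Cd109 had 179 and 181 counts in Liv_OFF and 338 and 348 in Liv_ON (adjusted p = 0.0528, limma). Mapk3 had 1591 and 1350 against 938 and 927 (adjusted p = 0.0435, limma). Samples that did not overlap were a condition for naming both, and 49.2% of all promoter peaks did not overlap between Liv_OFF and Liv_ON. With n = 2 in each group, these limma results lean on the spread shared over all 16 samples.

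In the average over organs Bdnf (1.08), Vmn1r42 (1.11), Hs6st2 (1.06), Myo18a (1.05), Dynap (0.93), Sprr2k (0.90) and Serpinb2 (0.89) were higher beside Cdh10, and Adgrf1 (−1.20), Fbxl5 (−0.99), Muc5b (−0.98), Dio1 (−0.97), Sigirr and Pla2g4a (−0.99) lower beside Iffo2 and Gli2. The calls of Sprr2k, Serpinb2 and Hs6st2 were lost under 19, 17 and 12 alternatives, those of Cdh10, Adgrf1, Iffo2 and Gli2 under none, and those of the others under 1 to 3. Adgrf1, an adhesion receptor, had 225 and 213 counts in Liv_OFF and 76.9 and 80.2 in Liv_ON, and 360, 181 and 225 in Lung_OFF against 70.8, 89.1 and 144 in Lung_ON (adjusted p = 0.00507 for the average, limma). Samples that did not overlap in at least 2 organs were a condition for naming it. In the pancreas 79.4, 47.3 and 94.5 OFF came close to 43.6, 39.6 and 37.6 ON. Of the 52 promoters higher in the average 46 belonged to the low CpG class and none to the high class, and of the 172 lower ones 135 and 12. Among those of the low class the AP-1 motif was found in 54.3% of the higher and in 8.15% of the lower ones, against 18.1% of all low CpG promoters.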

How the data were processed

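ATAC-seq was measured in 16 samples of 6 groups. Per the labels and the study's methods, the authors used Trim Galore and cutadapt for trimming, Bowtie2 for alignment (mm10) and MACS2 for peaks, merged peaks within 500 bp into 1 atlas, counted reads with featureCounts and divided by DESeq2 size factors. The deposited signal values are these normalised counts. Read shifting, duplicate removal and the filter behind the table are not given in the sources used here. Size factors equalise the libraries over all peaks, so that a shift of all promoters stays in the values. All values gave whole reads within 0.01, and the libraries held 23.0 to 38.2 M reads. Of 136631 rows 1 was mitochondrial and was left out.

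limma 3.58.1 (R 4.3.3, trend and robust) was fitted to log2(value + 1) of all 136630 nuclear peaks with 6 group means. A call needed a log2 difference of at least 0.58 in size and a Benjamini-Hochberg adjusted p of at most 0.1. Fold changes on this scale understate those of low peaks. edgeR 4.0.16 and DESeq2 1.42.0 on the recovered reads, TMM factors, quantile normalisation, promoter-median centring, GC correction, other windows, thresholds and pseudocounts, and leaving out each library were alternatives. The fits were tested on simulated data. Peaks that hold a start site were added as an alternative after seeing the data.

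Named genes were the 10 (organs) or 8 (Smad4) called promoters of largest log2 difference in each direction, with samples that did not overlap (for the average, in at least 2 organs) and a mean of at least 50 in the higher group, 1 peak per gene. The 8 pairs of largest difference and up to 4 members per list were named too, and further list members were added where a count was 5 or fewer or where they help to read a list, after their values were seen. The members and lists were chosen with earlier results of these data known. Replicate numbers come from the labels. Deviations of same-numbered OFF and ON samples correlated at 0.491, 0.124 and 0.214 in the lungs. They correlated at −0.33, 0.0271 and −0.33 in the pancreas and at 0.0834 in the liver. Samples of unlike number were not compared in this way, so that these values do not establish a pairing. The main fit had no block, and blocks on the replicate number were alternatives. No 2 libraries of a group agreed within counting noise. The labels number mice within each group, with the same numbers reused in every group, and do not say whether a number marks a shared litter, line or day. The p-values measure the spread between these samples. The results of some items are not reported here.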

Additional observations from a re-analysis of the deposited data

Results flagged for a closer look

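The Lef1 promoter was higher in every ON sample than in every OFF sample of the pancreas and lower in every ON sample of the lungs, and its log2 differences were 1.13 apart. The Tmem47 promoter was higher in every ON sample of the pancreas and lower in every ON sample of the liver, with log2 differences 2.52 apart. Neither difference between organs was called in the fit of the interaction over all nuclear peaks.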

How the results depend on the processing

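With thresholds of 1 and 0.05 the calls were 1532 for Liv_OFF vs Lung_OFF, 2099 for Liv_OFF vs Panc_OFF, 437 for Lung_OFF vs Panc_OFF, 1111 for Liv_ON vs Lung_ON, 2241 for Liv_ON vs Panc_ON, 795 for Lung_ON vs Panc_ON, 80 for ON vs OFF in the pancreas, 1 in the liver, 15 in the average and 281 for pairs. Quantile normalisation gave 2295 for Liv_OFF vs Lung_OFF, 483 in the pancreas, 6 in the liver and 1 for the Smad4 effect in lungs minus pancreas. Promoter-median centring gave 202 in the pancreas and 37 in the liver, GC correction 153 and 6, and a pseudocount of 10 gave 7 in the liver. With only the groups compared there were 4 calls in liver and 0 in lung metastases. With a replicate block in every organ there were 7 in the liver and 28 for lungs minus pancreas, with the block in the lungs only 39 in the liver, 3 in the lungs and 182 for lungs minus pancreas, and with the block and GC correction 1 in the liver. The block moved no other count of calls by over 1.5 times. edgeR gave 4 in the liver. DESeq2 gave 468 in the pancreas, 61 in the liver, 49 in the lungs, 188 for the Smad4 effect in lungs minus pancreas, 1 for liver against lungs and 2 for liver against pancreas. A window of 2000 bp gave 22 in the liver, 352 in the average and a promoter share of counts of 41.9%, a window of 500 bp 0 in the lungs and 29.2%, and peaks that hold a start site 43.0%, against 36.8%. Organ took 69.6% of the variance with a mean count of at least 20. The cause of these moves was not tested.

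Without 1 library the counts ran from 2582 to 4461 for Liv_OFF vs Lung_OFF, 3296 to 4918 for Liv_OFF vs Panc_OFF, 414 to 923 for Lung_OFF vs Panc_OFF, 918 to 2564 for Liv_ON vs Lung_ON, 2721 to 4557 for Liv_ON vs Panc_ON, 1277 to 1988 for Lung_ON vs Panc_ON, 34 to 441 in the pancreas, 1 to 43 in the liver, 0 to 3 in the lungs, 91 to 382 in the average and 0 to 325 for lungs minus pancreas. Of the named results, 58 of 60 for organs, 6 of 8 for pairs and 10 of 39 for Smad4 kept their call under the alternatives run, and none reversed. The 2 liver samples per group and 3 in the others limit the precision of every Smad4 value.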
